A study of Schizosaccharomyces pombe with 22 samples.

Results

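The small subunit processome is the large assembly of proteins and U3 small nucleolar RNA that forms on the nascent ribosomal RNA precursor and in which the 18S rRNA of the small ribosomal subunit is folded, modified and cut free. The genes described here are 40 genes for its proteins and partners. They were chosen by name, and a probe was theirs when it carried the symbol, a synonym or the systematic name of the gene, with an IGR prefix on arrays of intergenic regions. Of the 40, 36 were on all expression arrays, out of 4716 genes on all of them, and 33 could be tested. Probes for 35 of them were among 4941 intergenic regions. On the open reading frame (ORF) arrays of chromatin 37 had probes, of which 34 were used.

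The processome assembles in steps in the nucleolus. The UTP-A proteins bind the leading spacer of the precursor first, the UTP-B complex follows, and the U3 particle with the Mpp10 complex base-pairs with the precursor and positions it for cleavage. Scaffold proteins, a GTPase and helicase cofactors then remodel the assembly, and late factors accompany the pre-40S particle to the cytoplasm, where the nuclease Nob1 makes the last cut. These roles are best known from the budding yeast Saccharomyces cerevisiae, and the gene roles given here are taken from it unless the fission yeast annotation states them.

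The study, titled for the integrity of the nucleolus, concerned Pst3. It is the fission yeast counterpart of Sin3, a protein that holds histone deacetylase complexes together. RNA or immunoprecipitated DNA of Schizosaccharomyces pombe was hybridised to spotted arrays, 22 samples in all. The 2 arrays called pst3 repressed held RNA of a strain labelled pst3nmt in which, by the label, pst3 was repressed. The nmt promoter of fission yeast is shut off by thiamine. The 8 wild-type arrays held RNA labelled only as wt, in both channels. Medium, time of repression and other alleles are not in the labels used here, nor is any statement that each array had a culture of its own. P-values therefore measure only the spread between arrays, which may be technical, and codes in the wild-type titles recur in pairs, so that the 8 arrays may not be separate samples. The 2 Pst3-GFP arrays set DNA bound by GFP-tagged Pst3 against wild-type input on intergenic regions (IGRs), with the channels exchanged between them. A further 4 arrays, from 1 slide code, came from Pst3-GFP material with beads, 2 on IGRs and 2 on ORFs. The last 6 arrays were histone H3 arrays on IGRs and ORFs, 1 each for wild type, for hst2D and for hst4D, strains named after the sirtuin deacetylases Hst2 and Hst4. Titles of the hst2D and hst4D arrays set their input against H3 beads, and for 3 of those 4 arrays the second channel is labelled as wild type.

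Spot layouts divided the expression arrays into 3 prints, that is, batches of slides with a layout of their own. The pst3 repressed arrays lay on a print of their own, wild-type replicates 1 to 5 on the second and 6 to 8 on the third, so print and strain cannot be told apart. The median net signal was 1539 and 3793 on the pst3 repressed arrays and lay between 402.6 and 3835 on the wild-type arrays. Among the genes tested, the rank correlation was 0.855 between the pst3 repressed arrays. It was 0.462 to 0.941 between pairs of wild-type arrays and 0.414 to 0.653 between a pst3 repressed and a wild-type array. The pst3 probe itself had levels of 10.22 and 10.08 on the pst3 repressed arrays, against a mean of 10.21 ± 0.38 on wild-type arrays (SD, n = 8, normalised log2 level). Its difference was -0.06 with an SE of 0.39 (limma, adjusted p = 0.953). The repression named in the label was thus not seen at this probe, and each direction below is that of the arrays labelled pst3 repressed.

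Not every gene could be followed. For utp9 and krr1 no entry was found in the annotation by symbol or synonym, and they were left out. The gene dim1 had no probe on the print of the pst3 repressed arrays. On wild-type arrays its net signal was 84.4 at the lowest, 437 at the median and 1512 at the highest of 8 arrays. The fission yeast annotation gives dim1 as a subunit of the spliceosomal tri-snRNP, whereas the processome-associated Dim1 of budding yeast is an 18S rRNA methyltransferase. It is counted below, at IGRs and among promoters, only because its name is on the list. The gene rrp12, for a repeat protein that helps to export pre-40S particles, had no probe on the print of wild-type replicates 6 to 8 and was compared with replicates 1 to 5 alone. Its levels were 10.20 and 8.69 on pst3 repressed arrays, against 10.20, 10.04, 10.19, 9.50 and 9.68 on wild-type replicates 1 to 5. The groups overlapped, and the difference of -0.48 with an SE of 0.47 was not called (limma over 4700 genes, adjusted p = 0.527).

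The probes of utp6, utp20 and nop14 sat on 2 plates whose names appeared exchanged on the print of the pst3 repressed arrays. Over 184 names of these plates, the rank correlation of the pst3 repressed arrays with wild type was 0.0282 and 0.0308 with the names as deposited, against 0.659 and 0.689 with the names exchanged. Between the wild-type prints it was 0.736. The plates were picked by this same correlation between the prints, so these values are no separate support for an exchange. All 192 names of these plates were left out of the test, a choice made after seeing the data. The consequence for these genes is large. As named, utp20, a very large repeat protein of the processome, had a log2 difference of 3.60 (limma, adjusted p = 0.002532), and with names exchanged it had -0.34 (limma, adjusted p = 0.768). For nop14, a central scaffold protein, the values were 3.05 as named and -0.88 exchanged (limma, adjusted p = 0.112 and 0.697). For utp6, a UTP-B subunit, they were -0.85 and -2.06 (limma, adjusted p = 0.526 and 0.0972). The genes utp6, utp20 and nop14 were also left out on the ORF chromatin arrays, where an exchange was not looked for. Values over all probes of those arrays kept the names of these plates.

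RNA of the processome genes tended to be lower with the pst3 repressed label than in wild type. Of the 33 genes tested, 29 (87.9%) had a log2 difference below 0, where 2300 of all 4528 genes (50.8%) did. The median difference was -0.80 for the processome genes and -0.02 for all genes. The interquartile range ran from -1.16 to -0.39 for the processome genes and from -0.66 to 0.65 for all genes. Only 3 genes passed the test against all 8 wild-type arrays, all lower, namely utp3, rrp9 and utp8 (limma, Benjamini-Hochberg adjusted p under 0.05). That is 9.09% of the 33, where 4.84% of all genes were called lower. No processome gene was called higher, where 4.75% of all genes were, and 30 were not called in either direction. At an unadjusted p under 0.05, 10 of the 33 were lower and 1 was higher, where 12.3% and 12.2% of all genes were. In RNA from whole cultures, fewer cells that express a gene and less RNA per cell cannot be told apart.

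The tendency showed on each pst3 repressed array. With each gene set against its wild-type mean, the median deviation of the 33 genes was -0.84 on replicate 1 and -0.81 on replicate 2 of pst3 repressed, where that of all genes was -0.0036 and 0.0084. On the wild-type arrays the median deviation of the 33 genes lay between -0.11 on replicate 8 and 0.38 on replicate 3. Replicate 3 of wild type also had the highest median over all genes, at 0.33. Both pst3 repressed medians were thus below those of all wild-type arrays, as the plot of each gene by array shows. Each wild-type array is part of the mean it is set against and the pst3 repressed arrays are not. Wild-type deviations are thus held small in part by construction. Another measure, with no test, is whether both pst3 repressed arrays lay below all 8 wild-type arrays. They did for 9 genes (27.3%), where they did for 10.2% of all genes. The 9 were utp3, rrp9, utp8, rrp36, enp2, rrp7, utp21, tsr1 and noc4. Only utp22 lay above all wild-type arrays on both, where 12.9% of all genes did.

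**Figure D1:**
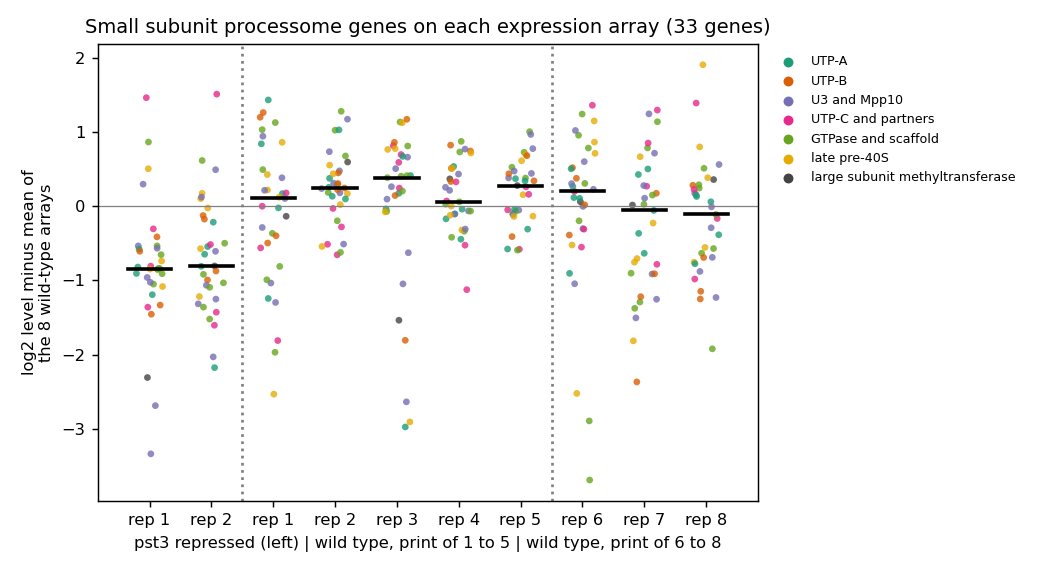
Each point is 1 of the 33 tested processome genes on 1 array. The y axis is its normalised log2 level minus its mean over the 8 wild-type arrays, the colour its role, and the bar the array's median. Medians are -0.84 and -0.81 on the pst3 repressed arrays at the left and lie between -0.11 and 0.38 on the wild-type arrays. Dotted lines separate the 3 prints.

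A signal limit moved with this result. On replicate 1 of pst3 repressed, 10 of the 33 genes (30.3%) were not above the 95th percentile of empty spots, where 24.3% of all genes were not. On replicate 2 all 33 were above it, where 0.552% of all genes were not. On wild-type arrays between 0 and 5 of the 33 were not above that limit. Their part in the result was not tested, but leaving out each gene that was not above the limit on either pst3 repressed array kept 23 processome genes and 1 of the 3 calls, utp8, where 2.25% of all genes kept were called lower. In that setting, chosen after seeing the data, the median difference was -0.73 for the 23 genes and 0.21 for all genes kept. The filter uses the pst3 repressed signals, so it takes out genes that are low there. These values are therefore no check of the tendency.

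Among the 3 genes called, utp3 (SPBC3B8.09, chromosome II, 3375459 to 3377368) is annotated as a U3 snoRNP-associated protein. It had levels of 8.02 and 9.32 on the pst3 repressed arrays. On wild-type arrays the lowest level was 10.12, the median 11.52 and the highest 12.60. Both pst3 repressed arrays lay below every wild-type array. The log2 difference was -2.68 with an SE of 0.60 (limma, adjusted p = 0.0154). Only 1 of the 2 pst3 repressed arrays measured it, because the signal on replicate 1 was not above empty spots, and no fold is given. With replicate 2 as the only pst3 repressed array the difference was -2.03 and was not called (limma, adjusted p = 0.267).

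The next gene was rrp9 (SPAC2E1P5.05, chromosome I, 3329341 to 3331216), whose protein binds the U3 RNA itself. Levels were 7.49 and 8.86 on the pst3 repressed arrays, against 9.27, 10.27 and 10.74 as the lowest, median and highest on wild-type arrays. The groups did not overlap. The log2 difference was -2.002 with an SE of 0.46 (limma, adjusted p = 0.0181). Here too only replicate 2 of pst3 repressed was above empty spots, and with it alone the difference was -1.32 and was not called (limma, adjusted p = 0.329).

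The UTP-A gene utp8 (SPAC1565.05, chromosome I, 1297169 to 1299830) encodes a subunit of the complex that is the first to bind the precursor. Its levels were 11.13 and 10.15 on the pst3 repressed arrays, against 11.42, 12.50 and 12.75 as the lowest, median and highest on wild-type arrays. The groups did not overlap, and both pst3 repressed signals were well clear of empty spots. The difference was -1.68 with an SE of 0.44, a 3.21-fold lower level (limma, adjusted p = 0.0303). The means were 10.64 ± 0.70 on pst3 repressed and 12.33 ± 0.45 on wild-type arrays (SD, n = 2 and 8).

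The calls of utp3 and utp8 were lost when either pst3 repressed array was left out. Without replicate 1 of pst3 repressed none of the 33 was called lower, where 0.486% of all genes were, and without replicate 2 only rrp9 was, where 0.972% were. With the print as a random block none of the 33 was called lower, where 1.46% of all genes were, while the differences were -2.65 for utp3, -1.99 for rrp9 and -1.66 for utp8. Without wild-type replicate 3, 5 of the 33 were called lower, where 5.85% of all genes were, utp18 and rrp8 being added to the 3.

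The letters upstream of these 3 genes are shown because the IGR arrays probed intergenic regions named for them. Each line holds the 150 bases before the annotated gene start in RefSeq assembly ASM294v3, read 5′ to 3′ on the strand of the gene. They are chrII:3377369-3377518 on the minus strand for utp3, chrI:3329191-3329340 on the plus strand for rrp9 and chrI:1297019-1297168 on the plus strand for utp8. Coordinates of the IGR probes themselves are not given in the files, so how far each probe covers this stretch is unknown. No base is in capitals because none of the 5 motifs searched (given further on) occurs in these stretches.
utp3: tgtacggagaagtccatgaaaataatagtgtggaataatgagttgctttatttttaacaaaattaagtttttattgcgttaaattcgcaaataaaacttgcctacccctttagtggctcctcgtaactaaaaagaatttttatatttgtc
rrp9: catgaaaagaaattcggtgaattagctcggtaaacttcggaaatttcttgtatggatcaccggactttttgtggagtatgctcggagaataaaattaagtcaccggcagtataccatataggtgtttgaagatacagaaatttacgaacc
utp8: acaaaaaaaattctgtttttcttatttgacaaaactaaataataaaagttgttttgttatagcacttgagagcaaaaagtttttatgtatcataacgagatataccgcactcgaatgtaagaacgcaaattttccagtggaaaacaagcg

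Beside utp8, the UTP-A complex gave 4 more tested genes, utp4, utp5, utp10 and utp15, all with differences below 0 and none called. The median of the 5 was -0.73. The differences of utp5 and utp10 were -0.82 and -0.73 (limma, adjusted p = 0.293 and 0.365). Among them utp15 had the closest groups, with levels of 9.80 and 10.42 on pst3 repressed arrays, against 10.19, 10.66 and 11.05 as the lowest, median and highest of wild type. Its difference was -0.53 with an SE of 0.37 (limma, adjusted p = 0.421). The gene with the largest p among UTP-A was utp4, with levels of 10.32 and 10.25 on pst3 repressed arrays. Wild-type levels of utp4 ran from 7.93 on replicate 3 through a median of 11.23 to 12.33, and the difference was -0.61 with an SE of 0.84 (limma, adjusted p = 0.710).

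In the UTP-B complex, which binds after UTP-A, 4 genes were tested and none was called against all wild type. Their median was -0.78. The differences of utp18 and utp13 were -1.16 and -0.39 (limma, adjusted p = 0.229 and 0.743). The levels of utp21 were 9.70 and 10.04 on pst3 repressed arrays, against 10.12, 11.22 and 11.86 as the lowest, median and highest of wild type. The groups did not overlap, but the difference of -1.16 with an SE of 0.48 was not called (limma, adjusted p = 0.146). A sister subunit, dip2, had levels of 10.66 and 10.95 on pst3 repressed arrays. Its wild-type levels were 8.71 at the lowest, 11.56 at the median and 12.28 at the highest, and the groups overlapped (limma, adjusted p = 0.879).

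The U3 and Mpp10 group held 7 tested genes, of which utp3 and rrp9 were called lower. The median was -0.80. The difference of utp7, a WD-repeat protein, was -0.23 (limma, adjusted p = 0.853). The Mpp10 complex itself, made of Mpp10, Imp3 and Imp4, gave differences of -0.59, -1.14 and -0.80, none called against all wild type (limma, adjusted p = 0.698, 0.205 and 0.351). The levels of imp3 were 10.12 and 9.89 on pst3 repressed arrays, against 9.89, 11.25 and 12.09 as the lowest, median and highest of wild type, so the groups just overlapped. For sof1, a WD-repeat protein of the U3 group, levels were 10.07 and 9.90 on pst3 repressed arrays, against 8.48, 9.98 and 10.55 as the lowest, median and highest of wild type. Its difference was 0.21 with an SE of 0.55 (limma, adjusted p = 0.863), 1 of the 4 values above 0 among the 33.

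The UTP-C genes split. Levels of rrp36 were 9.04 and 8.25 on pst3 repressed arrays, against 9.32, 9.95 and 10.12 as the lowest, median and highest of wild type. The groups did not overlap, and the difference of -1.21 with an SE of 0.39 narrowly missed the threshold (limma, adjusted p = 0.0658). Those of its partner rrp7 were 8.23 and 8.16 on pst3 repressed arrays, against 8.61, 9.60 and 10.88 for wild type, again without overlap (difference -1.39, limma, adjusted p = 0.122). Signals of rrp36 and rrp7 were not above empty spots on replicate 1 of pst3 repressed, nor was that of rrp7 on 2 wild-type arrays. The scaffold of the complex, utp22, ran the other way. Its levels were 9.95 and 10.00 on pst3 repressed arrays, against 7.37, 7.95 and 9.88 as the lowest, median and highest of wild type. The difference of 1.49 with an SE of 0.66 was not called (limma, adjusted p = 0.187), and the signal was not above empty spots on 3 of the 8 wild-type arrays. The associated protein gene rrp5, which serves both subunits, had levels of 10.53 and 10.32 on pst3 repressed arrays, against 9.03, 11.03 and 11.69 for wild type (difference -0.41, limma, adjusted p = 0.711).

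The upstream letters of utp22 and of mpp10 are shown because each holds a searched motif and because they mark opposite cases, the highest RNA difference (utp22) and the highest Pst3-GFP ratio (mpp10) among these genes. Capitals mark the motifs. They are AAAATTTT in utp22 (chrII:3191119-3191268, minus strand), and AGTCACA followed by ACCCTACC in mpp10 (chrI:2135783-2135932, plus strand), in the same assembly and orientation as above.
utp22: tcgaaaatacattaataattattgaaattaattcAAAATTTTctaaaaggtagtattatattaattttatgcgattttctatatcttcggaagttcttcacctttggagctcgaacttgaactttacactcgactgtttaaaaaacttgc
mpp10: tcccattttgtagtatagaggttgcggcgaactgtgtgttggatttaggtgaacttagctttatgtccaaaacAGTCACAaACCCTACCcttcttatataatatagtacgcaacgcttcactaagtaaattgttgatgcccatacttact

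The 7 tested genes for the GTPase, cofactors and scaffold proteins had a median of -0.81, and none was called against all wild type. Among them enp2, a WD-repeat protein, had levels of 10.11 and 10.12 on pst3 repressed arrays, against 10.52, 11.20 and 11.68 as the lowest, median and highest of wild type. These groups did not overlap (difference -1.04 with an SE of 0.39, limma, adjusted p = 0.118). The same was true of noc4, the partner of Nop14, at 10.37 and 10.10 on pst3 repressed arrays, against 10.40, 11.05 and 11.81 for wild type (difference -0.79, limma, adjusted p = 0.292). The genes utp14 (for a helicase cofactor), utp16 and utp25, all without a call, gave differences of -0.81, -1.22 and -0.67 (limma, adjusted p = 0.478, 0.164 and 0.489). The cyclase-like protein gene rcl1 had levels of 11.57 and 11.32 on pst3 repressed arrays, against 7.81, 11.50 and 11.84 for wild type. Its difference was 0.74 with an SE of 0.95 (limma, adjusted p = 0.685). Its lowest wild-type arrays were replicates 6 and 8, of the same print, and on 2 wild-type arrays its signal was not above empty spots.

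The late pre-40S factors had a median difference of -0.37 over 5 genes, and none was called against all wild type. The GTPase-like factor tsr1 had levels of 10.10 and 9.73 on pst3 repressed arrays, against 10.19, 11.03 and 11.73 as the lowest, median and highest of wild type, without overlap (difference -1.03, limma, adjusted p = 0.199). The nuclease gene nob1 had levels of 11.06 and 10.53 on pst3 repressed arrays. Its wild-type levels ran from 7.65 through a median of 11.03 to 12.46, and the difference of 0.24 had an SE of 0.97 (limma, adjusted p = 0.917). Its sign turned without replicate 1 of pst3 repressed or without wild-type replicate 3 or 7. For the export factor gene enp1 the difference was -0.83 (limma, adjusted p = 0.520). The kinases rio1 and rio2, which act on the last pre-40S particles, had differences of -0.37 and -0.28 (limma, adjusted p = 0.809 and 0.765).

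One gene on the list, rrp8, belongs to the other subunit in budding yeast, where it methylates the 25S rRNA. Its levels were 7.00 and 8.50 on pst3 repressed arrays, against 7.77, 9.48 and 9.90 as the lowest, median and highest of wild type. Only wild-type replicate 3 overlapped with pst3 repressed. The difference of -1.56 with an SE of 0.55 was not called (limma, adjusted p = 0.0942), and the net signal on replicate 1 of pst3 repressed was below 0.

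**Figure D2:**
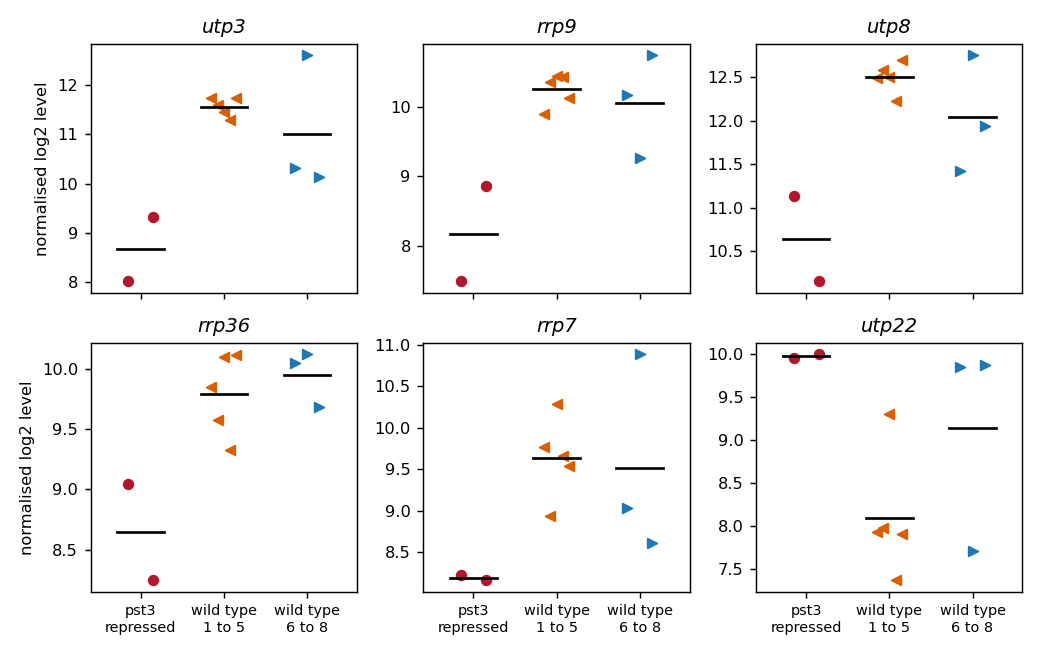
Normalised log2 level of 6 processome genes on each array, with pst3 repressed at the left and the 2 wild-type prints to its right. Bars are group means. For utp3, rrp9, utp8, rrp36 and rrp7 both pst3 repressed arrays lie below all 8 wild-type arrays, and for utp22 both lie above them.

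Against each wild-type print, the counts differed. Against replicates 1 to 5, 7 of the 33 genes were called lower (21.2%), where 8.57% of all genes were, and none higher, where 7.71% were. The 7 were utp3, rrp9, utp8, tsr1, imp3, utp21 and enp2. Against replicates 6 to 8, 2 were called lower (6.06%), namely utp3 and rrp9, where 7.18% of all genes were, and none higher, where 7.73% were. The first share is above that of all genes and the second below it. Both comparisons use the same pst3 repressed arrays. The genes called lower against both prints were utp3 and rrp9, where 3.67% of all genes were. The median difference of the 33 genes was -0.86 against replicates 1 to 5, with 29 below 0 where 51.3% of all genes were. It was -0.67 against replicates 6 to 8, with 25 below 0 where 50.1% of all genes were. Against both prints, 24 of the 33 had a difference below 0, where 1690 of all 4528 genes did.

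The values by print were as follows for the genes called. For utp3 the wild-type levels were 11.74, 11.59, 11.45, 11.29 and 11.74 on replicates 1 to 5 and 10.31, 12.60 and 10.12 on replicates 6 to 8. Its difference was -2.89 against replicates 1 to 5 and -2.34 against replicates 6 to 8 (limma, adjusted p = 0.00733 and 0.0334). The second print was more scattered than the first for this gene. The difference of rrp9 was -2.07 against replicates 1 to 5 and -1.88 against 6 to 8 (limma, adjusted p = 0.0117 and 0.0299), the nearest to equal among the called genes. That of utp8 was -1.86 against replicates 1 to 5 and -1.40 against 6 to 8 (limma, adjusted p = 0.0117 and 0.0617), so it passed only the first threshold. Whether its differences from the 2 prints differ was tested by the contrast between the prints, which was -0.46 for replicates 6 to 8 minus 1 to 5 (limma, adjusted p = 0.446).

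The 4 genes called against replicates 1 to 5 and not against all wild type had smaller differences against the other print. For imp3 the differences were -1.59 against replicates 1 to 5 and -0.39 against 6 to 8 (limma, adjusted p = 0.0178 and 0.593). For tsr1 they were -1.43 and -0.37 (limma, adjusted p = 0.0165 and 0.555). In both genes the wild-type prints themselves differed, with log2 differences of -1.20 for imp3 and -1.06 for tsr1 for replicates 6 to 8 minus 1 to 5 (limma, adjusted p = 0.0417 for each). For utp21 the differences were -1.41 and -0.75 (limma, adjusted p = 0.0482 and 0.324), and for enp2 -1.20 and -0.77 (limma, adjusted p = 0.0417 and 0.215). For these 2 genes the contrast between the wild-type prints was -0.65 and -0.43 and was not called (limma, adjusted p = 0.296 and 0.408).

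Between the wild-type prints, 5 processome genes were called lower on replicates 6 to 8 than on 1 to 5, where 6.85% of all genes were, and none higher, where 5.5% were. The GTPase gene bms1 had levels of 7.76, 10.07 and 11.34 on replicates 6 to 8, against 12.48, 12.73, 12.58, 12.18 and 12.45 on replicates 1 to 5. Its signal was not above empty spots on 1 of the 8 wild-type arrays. The pst3 repressed levels of bms1 were 10.60 and 10.09. Its difference was therefore -2.14 against replicates 1 to 5 and 0.62 against replicates 6 to 8, and neither was called (limma, adjusted p = 0.0546 and 0.633). For dip2 the differences were -1.07 and 1.07, and for rio1 -1.03 and 0.73, none of them called. The directions of bms1, dip2 and rio1 thus depend on the wild-type print, as the plot of differences shows. So do those of utp13, with -0.86 and 0.39, utp7, with -0.39 and 0.02, and nob1, with 0.49 and -0.17, none of them called.

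**Figure D3:**
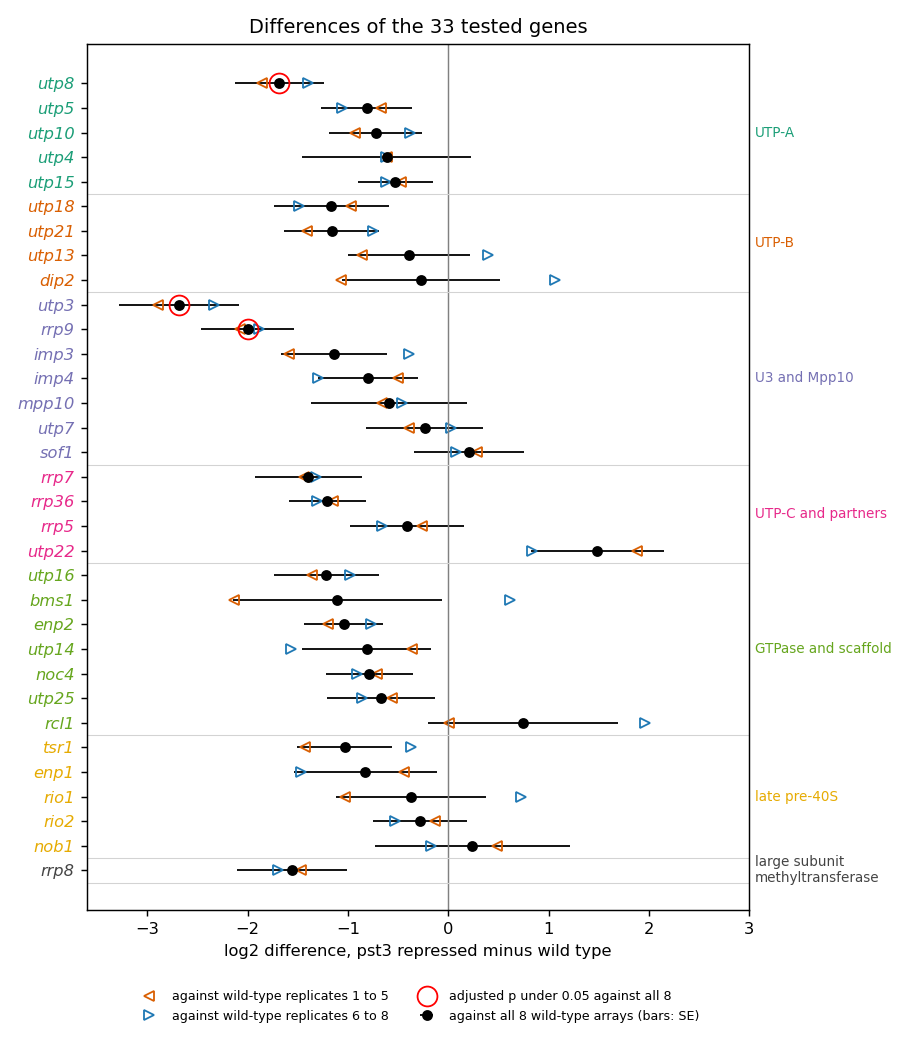
Log2 difference of each of the 33 tested processome genes, pst3 repressed minus wild type, ordered by role. Black points are against all 8 wild-type arrays with the SE of the fit, and open triangles are against each wild-type print. Ringed points, at -2.68, -2.002 and -1.68, are the 3 genes called against all wild type. The triangles of bms1, dip2 and rio1 lie on opposite sides of 0.

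Other genes of the pathway, 31 from a list of small subunit processing factors and U3 core proteins, were set beside these. Of 25 that could be tested, 5 were called lower (20%) and none higher, where 4.84% and 4.75% of all genes were. Their median difference was -0.60, where the median of all genes was -0.02. Differences below 0 were found for 18 (72.0%), where 50.8% of all genes had them. Both pst3 repressed arrays lay below all 8 wild-type arrays for 10 of the 25 (40%) and above them for 3. Of all genes, 10.2% and 12.9% did. Against replicates 1 to 5, 8 were called lower (32%) and 3 higher, where 8.57% and 7.71% of all genes were. Against replicates 6 to 8, 4 were called lower (16%) and 1 higher, where 7.18% and 7.73% were.

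Pst3-GFP at the intergenic regions of the processome genes was measured on 2 arrays as log2 of signal over the authors' reference, centred so that the median region of each array lies at 0. None of the 35 regions was called in either direction, where 0.951% of all regions were called above 0 and 0.769% below (limma, adjusted p under 0.05). At an unadjusted p under 0.05 there was 1, that of utp16, where 467 of 4941 regions were. The median of the 35 was 0.24, against -0.05 for all regions. It was -0.24 with background subtracted and 0.06 with the regions of dimmest reference left out, so its direction depends on the processing. On both arrays 14 regions lay above 0 and 7 below, where 27.4% and 27.7% of all regions did. By array, the median was 0.31 on replicate 1 and 0.34 on replicate 2 for the 35 regions, against -0.0058 and -0.00372 for all regions. The interquartile ranges of the 35, -0.46 to 1.18 and -0.19 to 0.71, held 0 on both arrays.

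Individual regions ranged from utp16 to mpp10. At utp16, whose protein is a U3-associated factor, the log2 ratios were -3.03 and -1.41, with a mean of -2.22 and an SE of 0.84 (limma, adjusted p = 0.221). At mpp10 they were 2.10 and 1.06, with a mean of 1.58 and the same SE (limma, adjusted p = 0.569). Neither was called. Of the genes called in the RNA comparison, utp8 had ratios of 1.27 and 1.45, utp3 0.98 and 1.25, and rrp9 -0.74 and -0.10. Both arrays thus lay above 0 for utp8 and utp3 and below 0 for rrp9, and none was called (limma, adjusted p = 0.689, 0.794 and 0.980). At rrp8 the ratios were 1.48 and 1.61, the highest value on replicate 2 among the 35 (limma, adjusted p = 0.577). The arrays disagreed most at utp20, with -3.86 and 1.00, and at utp4, with -3.78 and 0.64. Signals of utp16, utp3, rrp8 and utp4 were not above the 95th percentile of missing spots on replicate 2. The reference of rrp8 was the lowest of the 35, at percentile 7.71.

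**Figure D4:**
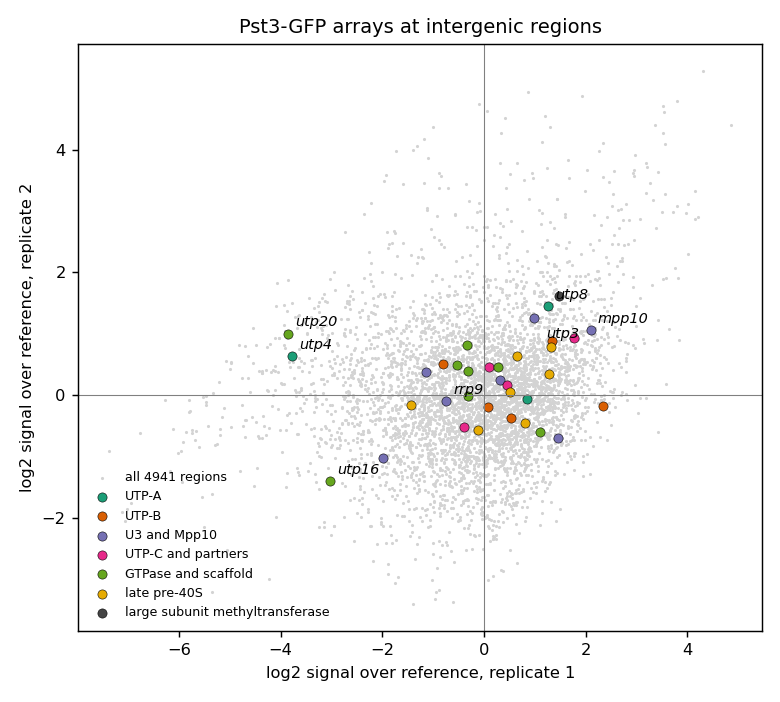
Log2 of Pst3-GFP signal over the authors' reference at intergenic regions, replicate 1 on the x axis and replicate 2 on the y axis, each centred on its median. Coloured points are the 35 regions of processome genes, by role, and grey points all 4941 regions. The processome regions lie within the cloud, with utp16 at -3.03 and -1.41 and mpp10 at 2.10 and 1.06, while utp20 and utp4 are negative on replicate 1 only.

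The signal on the second array was weak. At 25 of the 35 regions it was not above the 95th percentile of missing spots on replicate 2, where 65.7% of all regions were not, and at none of the 35 on replicate 1, where 2.59% were not. The reference divides every ratio. Over all regions its rank correlation with the ratio was -0.912 on replicate 2 and -0.0823 on replicate 1. Across the 35 regions these were -0.909 and -0.174. On replicate 2 the ratio was high where the reference was low, and the processome regions had a median reference percentile of 36. The part of the reference in their ratios was not tested. Across 30 genes with both values, taken from separate sets of arrays, the rank correlation of the Pst3-GFP ratio with the RNA difference was -0.0256, a description only.

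The beads arrays, 2 per probe set, share 1 slide code, and the labels do not say what sets one apart from the other. They were not taken as replicates of a condition, and the H3 arrays are single. Their values are therefore given with no test, as log2 of signal over the authors' reference, centred on the median of each array. Which way the deposited channel of the beads and H3 arrays runs is not stated in the sources used here, so these are signals of the deposited channel and not enrichments. On beads array 1, whose deposited IGR spot sets were identical and were counted once, the median was 0.12 over 35 IGRs and -0.05 over 34 ORFs. On beads array 2 it was 0.39 and 0.16. Over all probes these medians were between 0 and 0.0084. At least 2-fold above the median in each spot set were 10 of the 35 IGRs on array 1, where 24.1% of all regions were, and 6 on array 2, where 19.1% were. At least 2-fold below were 2 and 3, where 16.9% and 17.5% were. On ORFs 5 of 34 were above on each array, where 24.9% and 16.8% were, and 8 and 4 were below, where 16.7% and 17.6% were.

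Some genes changed place between the beads arrays and others did not. The genes named here were chosen after their values were seen. At the utp14 IGR, of a helicase cofactor, the log2 ratio was 4.23 on array 1 and 0.87 on array 2. At the utp8 IGR it was 1.06 and 3.15, and at rrp9 2.78 and -0.88. On ORFs utp3 had 4.13 and 0.52, rrp9 3.61 and -0.36, and utp8 3.52 and 1.39. The ORF of utp18, a UTP-B gene, was lowest of the 34 on array 1 at -2.28 and highest on array 2 at 2.97. The IGR of utp16 was lowest on both, at -1.24 and -1.17, and that of bms1 was low on both, at -0.92 and -1.06. On array 1 the median signal of all IGRs was 151, against a median background of 121. On array 2 the median signal of all IGRs, 1025, was below the median background of 1064. Across all IGRs the rank correlation of the ratio with the reference was -0.534 on array 1 and -0.896 on array 2. Across all ORFs it was -0.329 and -0.831. The IGR references of utp16 and bms1 lay at percentiles 84.7 and 70.1. The part of the reference in the beads values was not tested.

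Histone H3 values at the processome IGRs depended on the processing. With loess of the log ratio the IGR medians were 0.13 for wild type, -0.06 for hst2D and 0.00416 for hst4D. The values that follow are without loess. On the wild-type H3 arrays the median log2 ratio was 0.38 over 35 IGRs, with a range from -1.90 at imp4 to 2.01 at utp3, where the median of all regions was -0.00558. Over 34 ORFs it was -0.08, with a range from -1.74 at utp18 to 1.23 at utp22. At least 2-fold above in both spot sets were 5 IGRs and 2 ORFs, where 15.2% and 12.7% of all probes were, and 2 IGRs and 5 ORFs were below, where 16.2% and 12.2% were. Of the genes called in the RNA comparison, utp3 had H3 ratios of 2.01 at its IGR and 1.00 at its ORF. For utp8 they were 1.53 and 0.85, and for rrp9 -0.56 and -1.18. Every chromatin array of a probe set was divided by the same reference value at a given probe. At the IGRs this reference lay at percentile 8.03 for utp3, 9.09 for utp8 and 67.6 for rrp9. Values of a gene on the Pst3-GFP, beads and H3 arrays are therefore not separate measures.

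On the hst2D and hst4D arrays the medians were 0.28 and 0.36 over the IGRs and 0.11 and 0.10 over the ORFs, in that order of strains. The counts at least 2-fold above in both spot sets were 5 and 6 IGRs, where 15.4% and 16.1% of all regions were, and 1 ORF on each, where 11.6% and 11.7% were. Below were 2 and 3 IGRs, where 15.7% and 14.6% were, and 4 ORFs on each, where 12.6% were on both. On these arrays utp8 had the highest IGR ratio, 1.67 and 1.58, and mpp10 the lowest ORF ratio, -1.753 and -2.001. Across all probes the H3 ratios had rank correlations with the reference of -0.904 to -0.976. Median signals were 659.5 to 675 on the hst2D and hst4D arrays, close to backgrounds of 556.5 to 564, and 1065 on the wild-type H3 arrays, against backgrounds of 657.25 and 685. The part of the reference in these values was not tested.

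**Figure D5:**
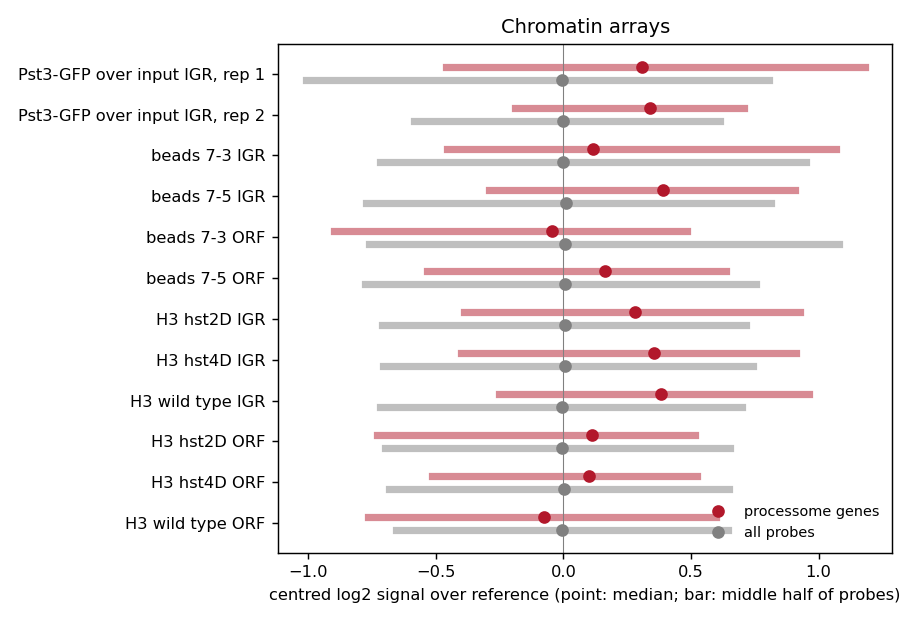
Median and interquartile range of the centred log2 signal over reference on each chromatin array, with the processome genes in red above all probes in grey. Processome medians are 0.31 and 0.34 on the Pst3-GFP arrays, 0.28 to 0.38 on the H3 IGR arrays and -0.08 to 0.11 on the H3 ORF arrays, with ranges that overlap those of all probes.

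Upstream motifs were searched in the 250 bases before the gene start of 38 processome genes and of 5112 protein-coding genes, on both strands, as a description. The HomolD box AGTCACA, an element of many fission yeast ribosomal protein promoters, was found for 4 of the 38 genes chosen by name (10.5%) and for 4.36% of all genes. The 4 were mpp10, rrp7, bms1 and the dim1 annotated to the spliceosome, with the box 77, 94, 37 and 41 bases before the gene start. The letters ACCCTACC of the HomolE box were found upstream of mpp10 alone (2.63%, against 1.51% of all genes), next to its HomolD box. The shorter ACCCTA, which the longer letters contain, was found for mpp10 and utp4 (5.26%, against 7.02%). Of the motifs named for budding yeast ribosome synthesis genes, the RRPE letters AAAATTTT were found for utp7, imp3 and utp22 (7.89%, against 7.0%) and the PAC letters GCGATGAG for none, where 0.176% of all genes had them. The genes lie on all chromosomes, 15 on chromosome I, 17 on II and 6 on III.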

How the data were processed

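Each deposited scanner file holds, per the file headers, the median intensity and surrounding background of every spot, for 1 spot set in 1 channel. The chromatin files add a reference intensity per probe made by the authors, the same in every file of a probe set. No scanner, software, filter or genome build is named in the sources used here, and labels cite published protocols. Depth is not defined for arrays, and the number of arrays limits the precision.

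Members, lists and tests were chosen with earlier results of these data known. Full values were set by rule for genes called, for the smallest and largest p of each role and for the ends of the Pst3-GFP range. The values of utp22, utp15, rrp7, noc4, rrp12, bms1 and the chromatin extremes were added after they had been seen. Names were matched through RefSeq's annotation (ASM294v3), with utp5 and utp13 found by a synonym. Background was corrected with normexp (offset 50), except in channels whose background was 0 for at least 90% of spots. Spot sets were averaged, channels quantile normalized over genes on all arrays and averaged per array, and limma's lmFit and eBayes applied with Benjamini-Hochberg adjustment at 0.05. Each pst3 repressed array was used through 1 deposited channel, Cy5 for replicate 1 and Cy3 for replicate 2. Wild-type replicate 1 was used through 1 channel and 1 spot set, also where the second spot set was taken alone. The comparison with each print took its spread from a fit of all 3 groups. Names on the exchanged plates were found by comparing prints and left out. Chromatin signals were divided by the reference, log2 transformed and centred on each spot set's median, with no loess. The IGR ratios were tested with limma, and the beads and H3 arrays have no test. The fits were also run on simulated data. For IGRs the simulated regions shared the same spread and had no link to the reference, so nothing is drawn from that run. Analyses used R 4.3.3, limma 3.58.1 and Python 3.11.15. Alternatives were other background corrections, scalings, filters, spot sets, blocks and leaving out each array. The authors' value tables were not used, because their spots could not be paired with names.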

Additional observations from a re-analysis of the deposited data

Results flagged for a closer look

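For 8 processome genes an array stood far from the others of its group by Dixon's test. That was 9 of 66 groups of arrays checked, at a nominal level of about 1 in 20. The share over all genes was not computed, so the count shows nothing particular to these genes. Replicates 1 to 5 were checked alone and again among all wild-type arrays, so the groups are not separate. Wild-type replicate 3 was the far array in 4 of the 9. It held rrp8 at 7.77 (next lowest wild-type array 9.17), utp4 at 7.93 (next 10.27), mpp10 at 7.80 among replicates 1 to 5 (7.805, next 10.54) and nob1 at 7.648 among replicates 1 to 5 (next 10.42), all normalised log2 levels. Wild-type replicate 1, used through 1 channel and 1 spot set, held utp5 at 9.71 (next 10.78) and enp1 at 7.78 (next 9.99). It also held rrp5 at 9.03, both among all wild-type arrays (next 10.53) and among replicates 1 to 5 (next 10.81). Replicate 6 held rio1 at 7.13 (next 9.10). On wild-type replicate 3, 640 of 4528 genes and 5 of the 33 tested processome genes were not above empty spots. Its rank correlation with the other arrays of its print was 0.558 to 0.627. Signals of rrp8, utp4, mpp10, nob1, enp1 and rio1 were not above empty spots on 1 or 2 wild-type arrays. The part of array quality in these values was not tested.

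For 5 genes the wild-type prints differed, which the limma fit tested as a contrast of replicates 6 to 8 minus 1 to 5. Of these, bms1 and rio1 had signals not above empty spots on 1 and 2 wild-type arrays. The log2 difference was -2.14 for dip2 (adjusted p = 0.007852), -2.76 for bms1 (adjusted p = 0.0134), -1.76 for rio1 (adjusted p = 0.0381), -1.20 for imp3 and -1.06 for tsr1 (adjusted p = 0.0417 for both, limma).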

How the results depend on the processing

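No paired analysis was possible because the labels give the groups no shared replicate numbers. Leaving out each array in turn, 0 to 5 of the 33 genes were called lower against all wild type, 1 to 11 against replicates 1 to 5 and 0 to 2 against replicates 6 to 8, where 3, 7 and 2 were called with all arrays. Without replicate 1 of pst3 repressed these counts were 0, 1 and 0, where 0.486%, 2.69% and 2.14% of all genes were called lower. Without replicate 2 they were 1, 2 and 1, where 0.972%, 4.59% and 3.25% were. Without wild-type replicate 3 they were 5 and 11 for the first 2 comparisons, where 5.85% and 10.2% of all genes were called lower. Of the 33, 1 was called against replicates 6 to 8 without replicate 7 or without replicate 8, where 5.85% and 3.51% of all genes were. A lone pst3 repressed array was assumed to vary like the wild type. With the print as a random block 0 were called against all wild type, where 1.46% of all genes were called lower. In another setting genes not above empty spots on either pst3 repressed array were left out, a choice made after seeing the data. That gave 1 against all wild type and 0 against replicates 6 to 8. Of all genes kept, 2.25% and 3.18% were called lower. This filter takes out genes that are low on the pst3 repressed arrays. Median centring gave 0 against replicates 6 to 8 (1.77% of all genes), a fit of the 2 groups alone gave 6 there (8.9%), and the second spot set alone gave 4 against replicates 1 to 5 (7.77%). Other settings, the wild-type title code as a random block among them, kept the count within 1.5 times. Calls of a higher level also came among the 33. Against replicates 1 to 5, utp22 was called higher without wild-type replicate 3 and in the fit of the 2 groups alone. Against replicates 6 to 8, rcl1 was called higher without wild-type replicate 7. In these settings 940, 719 and 602 of all 4528 genes were called in either direction. The call of utp3 against all wild type was lost in 3 of 20 alternatives, that of rrp9 in 2 of 20 and that of utp8 in 7 of 21. Against replicates 1 to 5, the calls of utp21 and enp2 were each lost in 9 of 17 alternatives. There tsr1 lost its call in 3 of 17, imp3 in 2 of 17, utp8 in 1 of 17 and utp3 and rrp9 each in 1 of 16. Against replicates 6 to 8, the call of utp3 was lost in 6 of 14 and that of rrp9 in 5 of 14. The difference of nob1, not called, turned to -0.02 without replicate 1 of pst3 repressed, -0.18 without wild-type replicate 3 and -0.02 without wild-type replicate 7, within a range up to 0.5118 over the arrays left out in turn. At IGRs, normexp correction gave 4 calls for Pst3-GFP (utp8, imp4, utp16 and rrp8), where 703 of all regions were called. The cause of these changes was not tested.

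Medians of the chromatin log2 ratios moved as follows. With normexp they were 0.139 on beads array 1 IGRs, -0.193 on its ORFs, 0.473 on wild-type H3 IGRs, 0.494 and 0.298 on hst2D and hst4D IGRs and 0.253 on hst2D ORFs. With loess they were 0.032 and 0.15 on IGRs of beads arrays 1 and 2, -0.117 and -0.00849 on their ORFs, 0.133 on wild-type H3 IGRs, -0.0604 and 0.00416 on hst2D and hst4D IGRs, and -0.0826 and -0.0328 on their ORFs. With the first spot set alone they were 0.462 on wild-type H3 IGRs, 0.366 on hst4D IGRs and 0.0654 on hst2D ORFs. With the second they were -0.0791 on beads array 1 ORFs, 0.517 and 0.0621 on wild-type H3 IGRs and ORFs, 0.325 and 0.376 on hst2D and hst4D IGRs, and 0.0431 and 0.0615 on their ORFs. The authors' value tables were not run as an alternative, and leaving out 1 Pst3-GFP array leaves no test.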
